A study of Rattus norvegicus with 6 samples.

Results

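The genes described here are 9 that interferons, the cytokines released on viral infection, are known to induce: the antiviral effectors Rsad2, Mx1, Mx2, Oas1a, Isg15 and Gbp2, and the transcription factors Stat2, Irf7 and Irf1. They were listed by name, with earlier results of these data known, so that comparisons of the list with all genes below are descriptions. The probe sets whose platform gene symbol is one of these names were taken. Of the 9 genes, 8 had a probe set, 10 probe sets in all among the 15866 tested, which stand for 10411 genes. Isg15 was not analysed here. Where a gene had more than 1 probe set, the one with the highest mean over the arrays is its main probe set, and the dimmer one is given beside it.

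The values come from intact cerebral resistance arteries of Dahl rats, a stock bred for its blood pressure response to salt into sensitive and resistant lines, of which the labels name neither. The high salt arrays hold arteries of rats fed chow with 8% NaCl, and the low salt arrays those of rats fed chow with 0.4% NaCl, both from 7 weeks of age and after low salt chow before that. Time on the high salt diet is labelled both 11 and 12 weeks, and time on the low salt diet 12 weeks. Each of the 6 arrays, 3 per diet, was hybridised with amplified RNA pooled from 3 rats, so that 9 rats stand behind each diet, and the p-values measure the spread between pools.

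Interferons act through receptors whose kinases, JAK1 and TYK2 for the type I receptor, phosphorylate STAT2. With IRF9 it takes part in a complex that binds the interferon-stimulated response element in front of antiviral genes. Interferon gamma instead acts through the gamma-activated sequence, and Irf1 is a classic target of that branch. IRF7 amplifies the response by driving more interferon genes. In blood vessels, endothelial cells, smooth muscle cells and resident macrophages can all answer to interferon.

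Promoter stretches are shown because these elements are what the family is known to share, and the list was not chosen on them. RefSeq's table of the assembly GRCr8 holds the 300 bases around the start of 7 of the 9 genes, all but Mx2 and Isg15. The core of the interferon-stimulated response element was searched as GAAA, any 2 bases, then GAAA, on both strands, so that a match on the other strand reads TTTC, any 2 bases, then TTTC. It occurred in 4 of these 7 promoters (Gbp2, Irf7, Oas1a and Rsad2), and in 3.92% of all 33469 promoters of that length. The letters TTCNNNGAA, the core of the gamma-activated sequence, read the same on both strands. They occurred in 2 of the 7 (Irf1 and Oas1a) and in 8.87% of all promoters. Mx1 and Stat2 held neither set of letters in this window. In the stretches of 60 bases below, written 5′ to 3′ along the gene's own strand, capitals mark the matches, 2 of them overlapping in the second stretch of Oas1a.
Rsad2, chr6:48788230-48788289, minus strand: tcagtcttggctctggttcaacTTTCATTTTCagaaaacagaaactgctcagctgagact
Oas1a, chr12:41330245-41330304, plus strand: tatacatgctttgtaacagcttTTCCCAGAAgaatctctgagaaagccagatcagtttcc
Oas1a, chr12:41330403-41330462, plus strand: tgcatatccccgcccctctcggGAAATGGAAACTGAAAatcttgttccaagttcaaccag
Gbp2, chr2:234005667-234005726, plus strand: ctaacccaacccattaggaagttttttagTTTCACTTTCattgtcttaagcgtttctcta
Irf7, chr1:205800055-205800114, minus strand: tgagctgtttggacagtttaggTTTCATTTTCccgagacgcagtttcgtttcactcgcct
Irf1, chr10:38417771-38417830, plus strand: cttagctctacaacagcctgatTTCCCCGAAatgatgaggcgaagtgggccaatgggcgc
The first base of the match lies 147 bases before the start in Rsad2, 69 in Irf7 and 31 in Gbp2. In Oas1a the overlapping pair begins 41 and 35 bases before it. The gamma-activated letters begin 142 bases before the start in Irf1 and 199 in Oas1a. A match is a description of these letters and not a measured binding site.

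Low salt replicate 1 stood apart from the other arrays. On the first principal component, with 63.1% of the variance, the high salt arrays spanned 7.85 to 27.9, whereas low salt replicates 1, 2 and 3 had scores of -65.9, 28.1 and -15.0. Array medians were 8.15 to 8.17 on high salt, against 7.96 on low salt replicate 1 and 8.07 on each of the other low salt arrays. The differences of the 8 genes, the list totals and some of the other values below are therefore also given without it. Some markers of the artery wall were bright on all arrays. The smooth muscle actin-binding protein Tagln lay between 13.33 and 13.92, and the endothelial tight junction gene Cldn5 between 12.50 and 13.21. Other endothelial markers were dimmer to varying degrees. Vwf lay at the 98.2 percentile of probe sets, Esam at the 93.2, Kdr at the 82.5 and Tie1 at the 67.5. Pecam1 lay at the 49.6 and Flt1 at the 34.9. Markers of other tissue were bright as well, with a mean of 13.92 for the meningeal gene Ptgds and 13.47 for Hbb of red blood cells. Astrocyte markers were present too. Their mean over 10 genes was 9.64 to 10.01 on the high salt arrays, against 8.64, 9.92 and 7.97 on low salt replicates 1, 2 and 3.

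Across the whole family 2 genes separated the diets, Rsad2 and Mx2, and neither passed the test across all probe sets. The high salt minus low salt difference was 1.95 ± 0.58 (SE) log2 units for Rsad2 and 0.63 ± 0.17 for Mx2, with n = 3 arrays per diet (limma, adjusted p = 0.803 for both, Benjamini-Hochberg). The other 6 genes overlapped between diets, with differences from -0.02 for Irf7 to 0.44 for Irf1. By limma 0 of the 8 genes passed an adjusted p of 0.05, where 0% of all probe sets did, and 2 stood at an unadjusted p below 0.05 (1 to 3 in the alternatives tried). That level was reached by 6.43% of all genes, 5.72% higher and 0.711% lower. The diets did not overlap in 8.64% of all genes with high salt above and in 3.32% with high salt below, against 2 of 8 and 0 of 8 here.

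**Figure D1:**
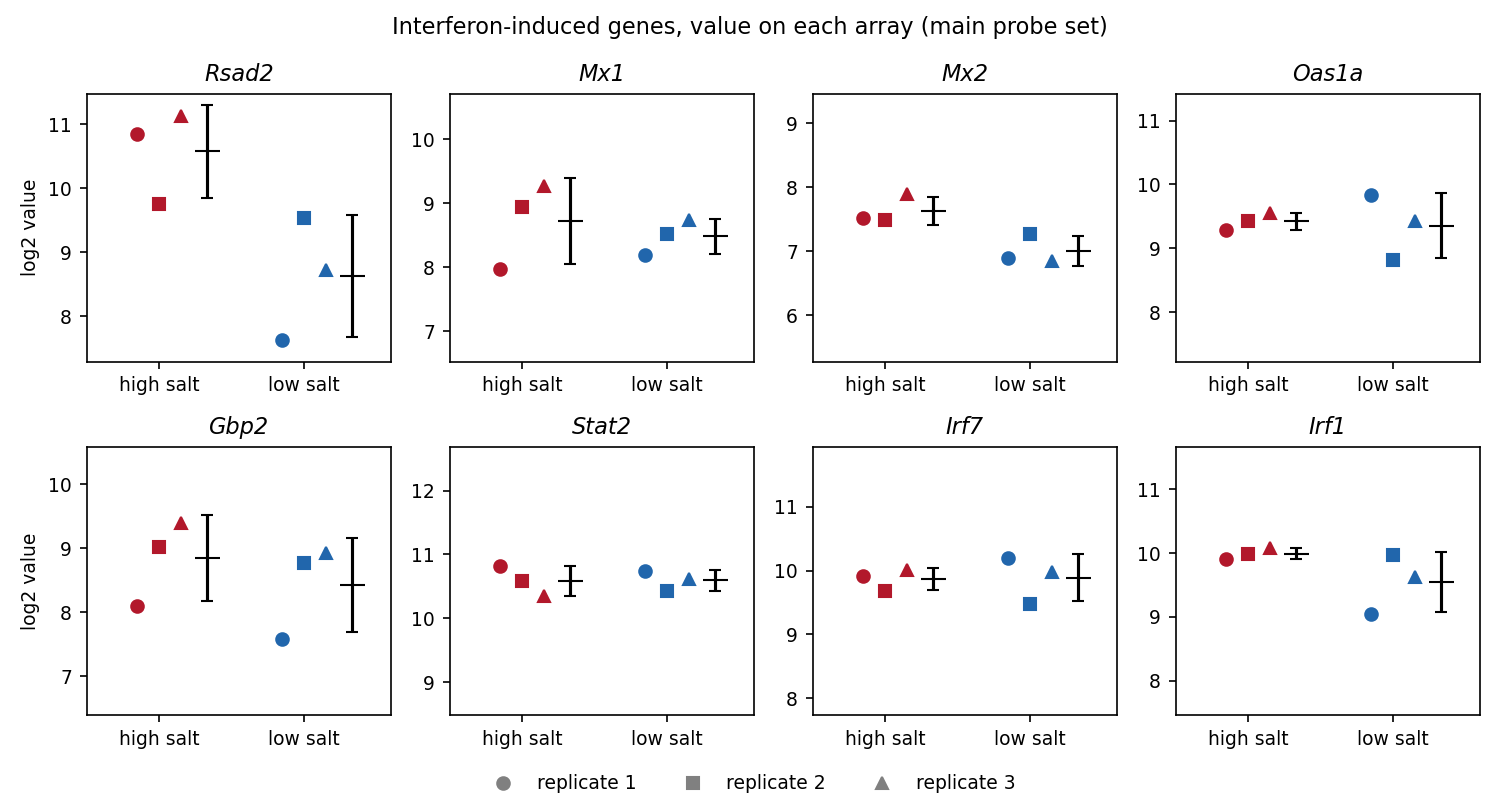
Log2 value of the main probe set of each gene (y axis, with the same span of 4.2 log2 units in every panel) on the 3 high salt arrays (red) and the 3 low salt arrays (blue); marker shape gives the replicate, and the bar beside the points is the mean with 1 SD. The diets do not overlap for Rsad2 and Mx2, and overlap for the other 6 genes.

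Rsad2 encodes viperin, a radical SAM enzyme that makes a chain-terminating nucleotide and blocks several viruses. Its value was 10.85, 9.75 and 11.13 log2 units on high salt replicates 1, 2 and 3, against 7.63, 9.54 and 8.72 on low salt replicates 1, 2 and 3. All high salt arrays lay above all low salt arrays, though high salt replicate 2 and low salt replicate 2 were only a small step apart. The means were 10.58 ± 0.73 (SD, n = 3) on high salt and 8.63 ± 0.96 on low salt. The difference of 1.95 has a 95% interval of 0.52 to 3.38, and corresponds to a 3.86-fold higher value on high salt. Only 5 of the 10411 genes had a larger difference by their main probe set. Without low salt replicate 1 the difference was 1.45, and leaving out the other arrays in turn gave 1.67 to 2.40. The unadjusted p of Rsad2 (limma) was 0.0531 without high salt replicate 1 and 0.0538 without high salt replicate 3. The adjusted p (limma, Benjamini-Hochberg) stayed at or above 0.180 in every alternative tried, the lowest being without low salt replicate 2.

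The Mx genes encode dynamin-like GTPases that trap viral components. In the rat the Mx1 protein is nuclear and the Mx2 protein cytoplasmic, and as paralogues they can share signal where probes match both. Mx2 stood at 7.52, 7.50 and 7.89 on high salt replicates 1 to 3, against 6.90, 7.27 and 6.85 on low salt replicates 1 to 3. Every high salt array exceeded every low salt array. The means were 7.63 ± 0.22 (SD, n = 3) on high salt and 7.01 ± 0.23 on low salt, and the 95% interval of the difference ran from 0.20 to 1.05, around a fold of 1.54. Without low salt replicate 1 the difference of Mx2 was 0.57. Its level was modest, at the 37.0 percentile of probe sets, and it was left out by the filter at the 40th percentile.

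The dimmer Mx2 probe set pointed the other way, with every high salt array below every low salt array, if only narrowly. It gave 5.30, 5.23 and 5.33 on the high salt arrays, against 5.53, 5.34 and 5.44 on the low salt arrays, a difference of -0.15 ± 0.10 (SE). At the 4.65 percentile of probe sets it lay below the lower quartile of every array (6.53 to 6.65), and its values spanned little. The mean of both probe sets gave a difference of 0.24 for Mx2.

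Mx1 behaved otherwise. It was 7.97, 8.94 and 9.27 on high salt replicates 1 to 3, against 8.20, 8.52 and 8.74 on low salt replicates 1 to 3. The high salt arrays held both the lowest and the highest value. The difference was 0.24 ± 0.36 (SE), with a 95% interval from -0.64 to 1.12, and it was 0.11 after median centring, 0.09 after quantile normalization or without low salt replicate 1, and -0.04 without high salt replicate 3.

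Oas1a encodes an oligoadenylate synthetase, which senses double-stranded RNA and makes the messenger that activates RNase L. The rat has several close Oas1 copies, so that signal from relatives cannot be told apart with 1 probe set. Oas1a was 9.29, 9.43 and 9.55 on high salt replicates 1 to 3, against 9.83, 8.81 and 9.42 on low salt replicates 1 to 3. The high salt values lay inside the range of the low salt values. The difference was 0.07 ± 0.27 (SE, 95% interval -0.59 to 0.72), and it turned to -0.06 after median centring, -0.20 after quantile normalization and -0.21 without low salt replicate 2. Without low salt replicate 1 it was 0.31.

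Gbp2 encodes a guanylate-binding protein, a GTPase most strongly induced by interferon gamma, which acts on vacuoles that hold pathogens. Its values were 8.10, 9.03 and 9.40 on high salt replicates 1 to 3, against 7.58, 8.77 and 8.93 on low salt replicates 1 to 3. Replicate 1 was the lowest of each diet. The difference of 0.41 ± 0.48 (SE, 95% interval -0.78 to 1.61) was -0.01 without low salt replicate 1 and 0.79 without high salt replicate 1.

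The transcription factors come next. Stat2, a subunit of the type I interferon complex, was 10.82, 10.59 and 10.35 on high salt replicates 1 to 3, against 10.75, 10.42 and 10.62 on low salt replicates 1 to 3. The diets overlapped fully, with a difference of -0.01 ± 0.16 (SE, 95% interval -0.40 to 0.38) that became -0.14 with median centring, -0.25 with quantile normalization and 0.06 without low salt replicate 1. The dimmer Stat2 probe set, well above the lower quartile at the 71.4 percentile, gave 9.52, 9.30 and 9.53 on high salt, against 8.98, 9.30 and 9.34 on low salt. Its difference was 0.24 ± 0.14, so that both Stat2 probe sets lie within 2 SE of 0 and on opposite sides of it.

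Irf7 was 9.91, 9.68 and 10.01 on high salt replicates 1 to 3, against 10.19, 9.48 and 9.98 on low salt replicates 1 to 3. As for Oas1a, low salt replicate 1 was the highest array and low salt replicate 2 the lowest, with the high salt arrays between them. The difference was -0.02 ± 0.21 (SE, 95% interval -0.53 to 0.50). It was -0.15 after median centring, -0.27 after quantile normalization and 0.14 without low salt replicate 1.

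Irf1, the factor of the interferon gamma branch, was 9.90, 9.99 and 10.08 on high salt replicates 1 to 3, against 9.05, 9.97 and 9.62 on low salt replicates 1 to 3. The high salt arrays were close together, and low salt replicate 2 lay among them. The difference was 0.44 ± 0.24 (SE, 95% interval -0.15 to 1.03), 0.23 after quantile normalization and 0.19 without low salt replicate 1.

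**Figure D2:**
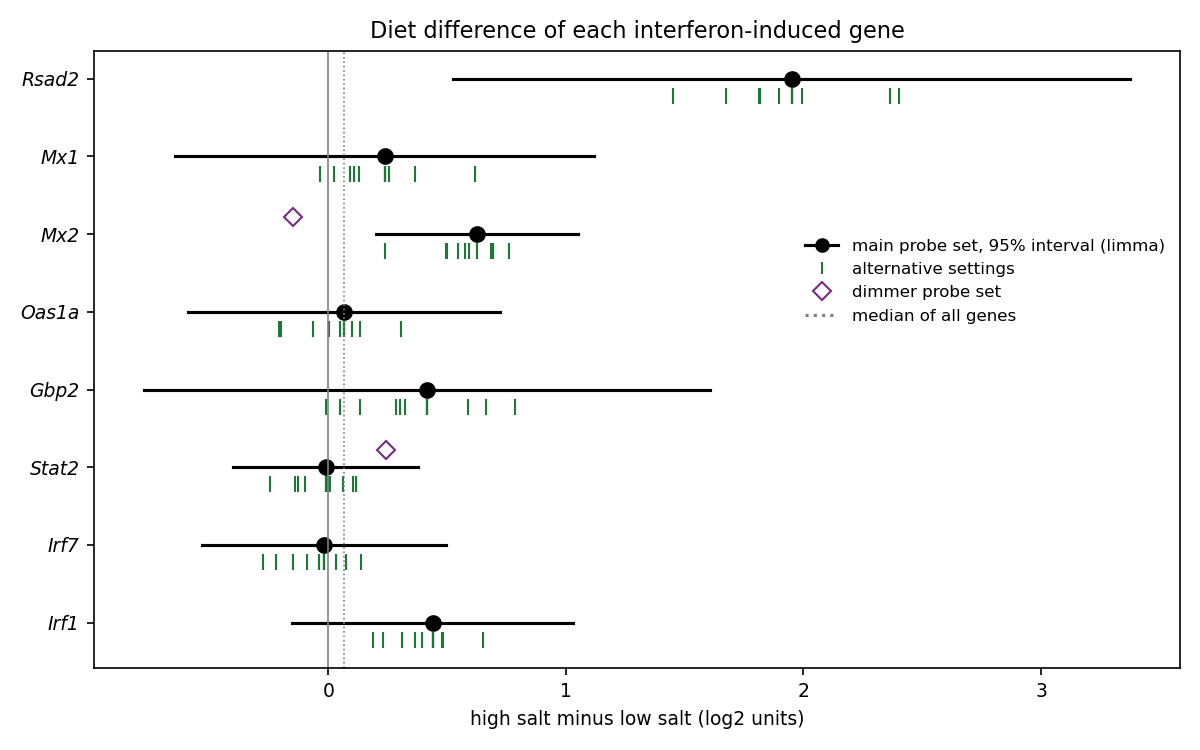
High salt minus low salt difference in log2 units (x axis) for each gene (y axis): black points and lines are the main probe set with its 95% interval from limma, green ticks the alternative settings, including each array left out, purple diamonds the dimmer probe sets, and the dotted line the median of all genes. The intervals of Rsad2 (0.52 to 3.38) and Mx2 (0.20 to 1.05) lie above 0, and those of the other 6 genes include it.

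As a list, 6 of the 8 genes had a positive difference, where 60% of all genes did, and the median was 0.33 log2 units, against 0.07 over all genes. Scaling moved both. After median centring 5 of 8 were positive with a median of 0.20, against 42.8% of all genes and a median of -0.06. After quantile normalization 5 of 8 were positive with a median of 0.16, against 46.3% and -0.02. Without low salt replicate 1, 7 of 8 were positive with a median of 0.16, against 61.5% and 0.05. Without that array Rsad2 and Mx2 were still the 2 genes whose arrays did not overlap, where 11.8% of all genes lay higher without overlap and 4.82% lower. Over all genes split into quintiles of brightness the median difference was -0.04 for the dimmest and 0.26 for the brightest. Mx2 lay in the second (median -0.01), Mx1 and Gbp2 in the third (0.14), Rsad2, Irf1, Irf7 and Oas1a in the fourth (0.23) and Stat2 in the brightest.

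The 8 genes did not share 1 pattern over the arrays. High salt replicate 3 held the highest value of 5 of them (Rsad2, Mx1, Mx2, Irf1 and Gbp2), and low salt replicate 1 that of Irf7 and Oas1a. Low salt replicate 1 also held the lowest value of 3 genes, Rsad2, Irf1 and Gbp2. On this array Rsad2 lay 1.97 log2 units below its own mean over 6 arrays, Gbp2 1.06 below and Irf1 0.72 below, while Oas1a lay 0.44 above and Irf7 0.32 above. High salt replicate 1 split the genes as well, with Rsad2 1.25 above its mean and Mx1 0.64 below. The pairs whose values ran most nearly together over the 6 arrays were Rsad2 with Mx2 (Pearson r 0.91), Mx1 with Gbp2 (0.90) and Oas1a with Irf7 (0.89). Those most opposed were Stat2 with Mx1 (-0.82) and Stat2 with Gbp2 (-0.80). These 28 coefficients describe 6 arrays that share diet and array effects, and are given without a test.

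**Figure D3:**
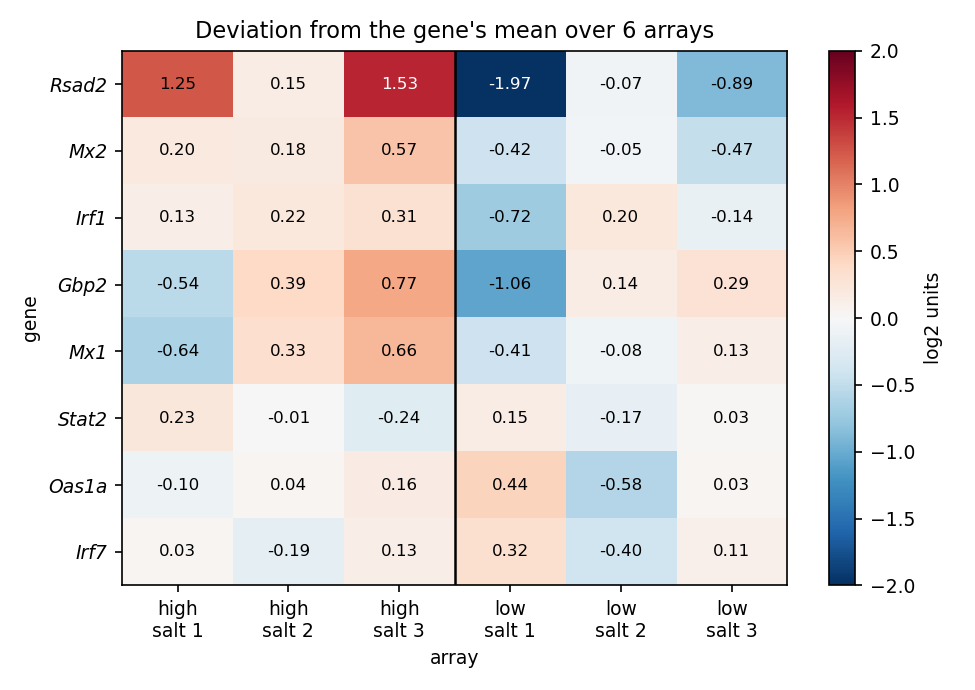
Deviation of each gene (rows) from its own mean over 6 arrays, in log2 units, on the 3 high salt arrays (left of the line) and the 3 low salt arrays (right of it); red is above the mean and blue below. Rsad2 spans -1.97 to 1.53, and low salt replicate 1 is low for Rsad2, Gbp2 and Irf1 but high for Oas1a and Irf7.

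The genes whose values most resembled the mean of the 8 were sought among 5199 other genes above the median level. They were Ppp2r2a, a regulatory subunit of protein phosphatase 2A (r = 0.98 over 6 arrays), Eif2b2, a subunit of the exchange factor of translation initiation (0.97), the phospholipase Pla1a (0.97), Parp14, an ADP-ribosyltransferase that interferon also induces (0.97), and the arginine methyltransferase Prmt9 (0.97). The mean of the 8 was taken over unscaled log2 values. Rsad2, with the widest span (-1.97 to 1.53 around its own mean), therefore weighs most in it. With 6 points and so many genes, coefficients of this size are a description only. Their differences were 0.68 ± 0.28 (SE) for Ppp2r2a, 0.42 ± 0.18 for Eif2b2, 0.76 ± 0.18 for Pla1a, 0.39 ± 0.17 for Parp14 and 0.18 ± 0.11 for Prmt9, each with an adjusted p of 0.803 (limma, Benjamini-Hochberg). After quantile normalization they were 0.51 for Ppp2r2a, 0.18 for Eif2b2, 0.53 for Pla1a, 0.14 for Parp14 and -0.01 for Prmt9. Prmt9 thus turned sign. The dimmer probe set of Ppp2r2a gave -0.18 ± 0.11, on the other side of 0 from its main one.

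The rest of the interferon system was covered by 8 lists of 145 genes, of which 80 were measured. Of these 0 passed the adjusted threshold (limma, Benjamini-Hochberg), and 9 (11.2%) were higher and 0 lower at an unadjusted p below 0.05, where 5.72% of all genes were higher and 0.711% lower. Positive differences numbered 56 of 80, or 70%, with a median of 0.23, against 60% of all genes and a median of 0.07. They numbered 47 after median centring (median 0.10), where 42.8% of all genes were positive, and 46 after quantile normalization (0.04), where 46.3% were. Without low salt replicate 1 they numbered 58 (0.15), where 61.5% of all genes were positive. These comparisons were not matched for brightness. Over all genes the median difference was -0.04, -0.01, 0.14, 0.23 and 0.26 from the dimmest quintile to the brightest. The median level was 5.79 for the interferon genes, and from 7.86 to 10.2 for the other role lists. The third quintile begins at 8.10 and the brightest at 10.13. Of the 80 genes 16 (20%) were higher without overlap and 1 lower, where 8.64% of all genes were higher and 3.32% lower. The 9 genes at an unadjusted p below 0.05 became 4 after quantile normalization and 5 without low salt replicate 1. Of the 15866 probe sets tested, 846 reached that level in the main comparison, in either direction. Their number fell to 768 once quantile normalized and to 576 when low salt replicate 1 was dropped. The 9, 4 and 5 are higher genes only, so the 2 kinds of count are not on the same basis. The counts without overlap are those of the main comparison.

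Of 11 interferon genes listed 2 were measured, Ifnb1 and Ifng, and both were dim. Ifnb1, the beta interferon, lay at 5.97, 6.26 and 6.01 on high salt replicates 1 to 3, and no low salt array exceeded 6.29. Ifng, interferon gamma, was 5.34 to 5.50 on high salt, against 5.51 to 5.61 on low salt. These values lay under the lower quartile of any array (6.53 to 6.65), and the differences of -0.04 ± 0.13 (SE) and -0.13 ± 0.09 say little at that level.

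Among 6 receptor and kinase genes 5 were positive, with a median of 0.28, and 0.08 after quantile normalization. The interferon gamma receptor chain Ifngr1 was 10.85, 10.38 and 11.06 on high salt, against 9.74, 10.27 and 10.62 on low salt, a difference of 0.56 ± 0.28 (SE), or 0.33 after quantile normalization and 0.32 without low salt replicate 1. Its partner chain Ifngr2 differed by 0.34 ± 0.17, and the kinase Tyk2 by 0.24 ± 0.10. These last were without overlap, though for Ifngr2 high salt replicate 1 (9.529) and low salt replicate 2 (9.527) nearly met. After quantile normalization the differences stood at 0.11 for Ifngr2 and 0.03 for Tyk2. The dimmer probe set of Ifngr2 gave -0.01 ± 0.09.

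Among 9 other STAT and IRF genes 5 were positive, with a median of 0.12 that turned to -0.01 after median centring and -0.08 after quantile normalization. Stat3, which answers chiefly to interleukin 6, differed by 0.52 ± 0.29 (SE) and its dimmer probe set by 0.55 ± 0.20. After quantile normalization Stat3 stood at 0.32. Irf2bp2, a corepressor that binds IRF2, differed by 0.68 ± 0.33 and stood at 0.44 after quantile normalization. Irf8, a factor of macrophages and other myeloid cells, differed by 0.50 ± 0.32, with high salt replicate 2 at 7.98 and every other array between 6.64 and 7.03.

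Among 8 sensors and adaptors 7 were positive, 5 after either scaling. Tbk1, the kinase that phosphorylates IRF3 and IRF7, stood out at 9.58, 9.72 and 9.72 on high salt replicates 1 to 3, against 7.56, 9.42 and 8.59 on low salt replicates 1 to 3. The diets did not overlap. The difference was 1.15 ± 0.45 (SE), and 0.67 without low salt replicate 1. The adaptor Myd88 differed by 0.35 ± 0.19 (0.14 after quantile normalization, 0.17 without low salt replicate 1). The RNA-editing enzyme Adar differed by 0.13 ± 0.11, which turned to -0.11 after quantile normalization.

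Among 9 inhibitors 6 were positive, with a median of 0.15, which turned to -0.06 after quantile normalization and -0.01 without low salt replicate 1. Ptpn2, a phosphatase of JAK1, differed by 0.83 ± 0.31 (SE), with 9.82, 9.07 and 9.81 on high salt, against 8.22, 9.09 and 8.91 on low salt. Its other probe set, at 5.12 on average, gave 0.04 ± 0.10. Socs1, the feedback inhibitor that interferon induces, differed by -0.20 ± 0.13, or -0.33 with median centring and -0.34 with quantile normalization. Ptpn11, the brightest of the list, differed by 0.15 ± 0.36 and turned to -0.06 after quantile normalization and -0.24 without low salt replicate 1. The dimmer probe set of Ptpn11 gave -0.11 ± 0.09, and that of Socs1 -0.11 ± 0.15.

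The other antiviral effectors were the longest list, and 18 of 23 were positive, with a median of 0.32 (0.14 after quantile normalization, 0.16 without low salt replicate 1). Ifi27, one of the classic interferon-induced transcripts, was 13.21, 13.44 and 13.24 on high salt replicates 1 to 3, against 11.65, 12.79 and 12.62 on low salt replicates 1 to 3. No low salt array reached the lowest high salt array, and the difference was 0.94 ± 0.31 (SE), or 0.59 without low salt replicate 1. Ifitm1, which hinders viral entry, was 11.99, 12.01 and 12.24 on high salt, against 11.57, 11.79 and 11.60 on low salt. Its difference was 0.43 ± 0.12, and 0.24 after quantile normalization. Tor3a differed by 0.49 ± 0.16, also without overlap. For all 3 the adjusted p was 0.803 by limma (Benjamini-Hochberg).

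Of 9 genes that interferon gamma induces, 5 were positive, with a median of 0.07, which turned to -0.06 after median centring. The adhesion molecule Icam1 differed by 0.30 ± 0.13 (SE) without overlap, and by 0.05 after quantile normalization. The GTPase Irgm2 was 10.75, 10.42 and 11.22 on high salt, against 8.44, 11.10 and 10.20 on low salt. Its difference of 0.88 ± 0.68 was 0.15 without low salt replicate 1. Gch1, which makes a cofactor of nitric oxide synthase, differed by 0.22 ± 0.17 (0.09 when centred and 0.10 when quantile normalized), and its dimmer probe set by -0.06 ± 0.09.

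In class I antigen presentation 10 of 14 were positive, with a median of 0.26, 0.13 after median centring and 0.12 after quantile normalization. The immunoproteasome subunit Psmb10 was 10.31, 10.68 and 10.04 on high salt, against 9.41, 9.30 and 10.03 on low salt, a difference of 0.76 ± 0.26 (SE). Psme2, a subunit of the proteasome activator, differed by 0.36 ± 0.12, and by 0.14 after quantile normalization. Neither overlapped between diets. B2m, the light chain of class I molecules, differed by 0.15 ± 0.15 on its main probe set, which lay at the 99.7 percentile, and by 0.77 ± 0.22 on its dimmer one at a mean of 11.8.

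**Figure D4:**
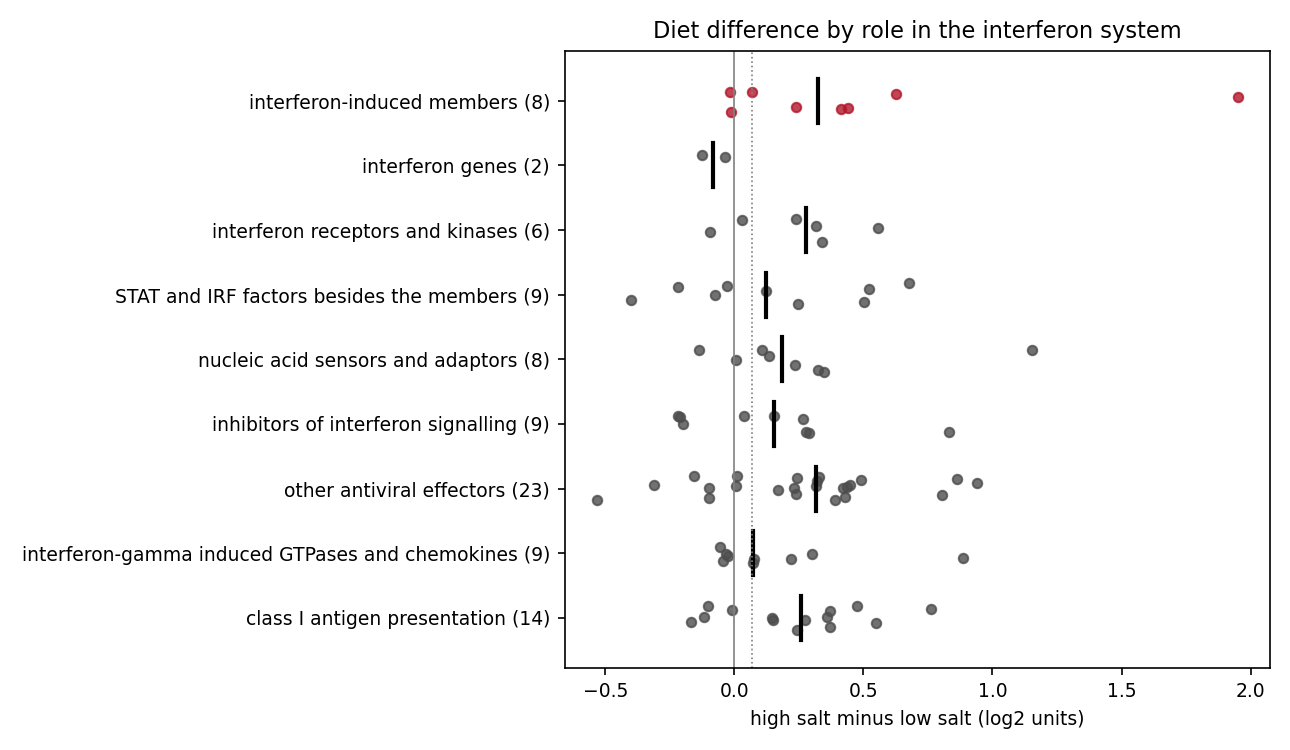
High salt minus low salt difference in log2 units (x axis) of each measured gene (points, red for the 8 genes described above and grey for the others) in the lists of interferon genes by role (y axis, number measured in brackets); black bars are list medians, the solid line is 0 and the dotted line the median of all genes, 0.07. Rsad2 at 1.95 lies apart from all other points, the next being Tbk1 at 1.15.

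Markers of cells that could carry these transcripts were set beside the results, and in bulk tissue fewer cells of a type and less RNA per cell cannot be told apart. Of 11 macrophage or microglia markers 9 were positive, with a median of 0.30 (0.09 after quantile normalization) and a mean level of 9.61 to 9.93 on the high salt arrays, against 9.17 to 9.65 on the low salt arrays. C1qa, a complement chain made by macrophages, had the lowest p of this list. It differed by 1.19 ± 0.34 (SE), and by 0.84 without low salt replicate 1. The other chains C1qb and C1qc differed by 0.33 ± 0.21 and 0.10 ± 0.40, and both overlapped between diets. Lyz2, the brightest, differed by 0.30 ± 0.21. The negative ones were Cd68 (-0.06) and Itgam (-0.03). T and natural killer cell markers were mostly dim, with a mean level of 6.40 to 6.62 on high salt, against 6.60 to 6.63 on low salt, and 2 of 12 were positive. Cd3g, a chain of the T cell receptor complex, differed by -0.29 ± 0.11. The astrocyte markers had 9 of 10 positive with a median of 0.91 (0.78 without low salt replicate 1). The 7 meningeal markers had 7 positive with a median of 0.84, and 0.58 without low salt replicate 1. With either scaling 6 were positive, with a median of 0.71 when centred and 0.60 when quantile normalized. The mean level of the meningeal markers was 10.94 to 11.49 on high salt, against 10.46, 11.18 and 9.91 on low salt replicates 1, 2 and 3. The 3 red blood cell markers were all positive, Hbb by 0.94 ± 0.24. Smooth muscle markers had 0 of 7 positive, with a median of -0.17, -0.30 after median centring and -0.42 after quantile normalization. Endothelial markers had 6 of 7 positive with a median of 0.13, which turned to -0.10 after quantile normalization. Of the remaining lists, 5 of 7 fibroblast, 3 of 6 pericyte, 3 of 8 neuron, 3 of 5 oligodendrocyte, 2 of 4 neutrophil, 2 of 3 dendritic cell and 1 of 2 B or plasma cell markers were positive. By limma 0 markers of these lists passed the adjusted threshold (Benjamini-Hochberg). At an unadjusted p below 0.05 (limma) 4 markers were higher and 2 lower, where 5.72% of all genes were higher and 0.711% lower. The part of these cell types in the differences of Rsad2 and Mx2 was not tested.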

How the data were processed

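The authors' deposited log2 values, 1 per probe set and array, were made with RMA (background correction, normalization and 1 summary value for a set's probes), which the submitters' processing notes name. The version used is not given here by any source, and base 2 was read from the range of the values. RNA was amplified in a 2-cycle kit, per the labels' protocols. Of 15923 rows, 57 controls were left out. Names came from the platform annotation: 12783 probe sets had 1 symbol, 312 had several and 2771 had none, and no gene was named from several. Of the first kind, 12748 were matched to RefSeq's GRCr8 gene table by Entrez identifier.

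The diets were compared with limma (version 3.58.1, R version 4.3.3; lmFit and eBayes, 3 arrays against 3, no block), with Benjamini-Hochberg adjustment over all 15866 probe sets, and the steps were tested on simulated data. The number of arrays limits the precision. SE is the moderated standard error. The labels do not say that replicate numbers pair the pools, so the main comparison used no block.

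The members and lists were chosen with earlier results of these data known. The naming rule took every member with all its probe sets, the brightest gene and the 2 of lowest p in each role list, the brightest gene and the gene of lowest p in each marker list, and the 5 genes most like the mean of the members. Settings tried as alternatives were leaving out each array, array weights, a replicate block, robust variances with a trend, leaving out probe sets below the 40th percentile, centring arrays on their medians, quantile normalization, and averaging a gene's probe sets.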

Additional observations from a re-analysis of the deposited data

How the results depend on the processing

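In each setting 0 members and 0 probe sets passed the adjusted threshold (limma, Benjamini-Hochberg), with 366 to 2722 probe sets at an unadjusted p below 0.05 and a lowest adjusted p of any probe set of 0.0501, without low salt replicate 2. Of 8 members 5 to 8 were positive with 1 array left out and 5 to 7 in the other settings, and 5 of 7 with the filter, which removed Mx2. The median over members was 0.12 to 0.55 with 1 array left out, 0.050 with array weights, whose estimation stopped before its tolerance was met, and 0.16 to 0.33 in the other settings. The replicate number as a block left the differences as they were (median 0.33, 6 of 8 positive), gave 716 probe sets at an unadjusted p below 0.05 and changed no call at the adjusted threshold. With it 3 members stood at an unadjusted p below 0.05, Rsad2, Mx2 and also Gbp2 (limma, unadjusted p = 0.0342 with an SE of 0.13, against 0.426 and 0.48 without the block, adjusted p = 0.893). That count was 1 without high salt replicate 3, with the filter and with probe sets averaged, 3 without low salt replicate 2, and 2 in the other settings. Without high salt replicate 1 the 2 were Mx2 (limma, unadjusted p = 0.0229) and Mx1 (0.0378), with Rsad2 at 0.0531. Deviations of same-numbered pools correlated at 0.04, -0.27 and 0.04 for replicates 1, 2 and 3, and those of unlike-numbered pools at -0.39 to 0.37. The labels do not say that same-numbered pools are paired, and correlations from so few arrays cannot decide it.

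Rsad2 and Irf1 kept their sign in all settings, and Mx2 in all but its dimmer probe set (-0.15). With 1 array left out the sign turned for Mx1 (-0.035 to 0.62), Irf7 (-0.22 to 0.14), Stat2 (-0.13 to 0.11), Oas1a (-0.21 to 0.31) and Gbp2 (-0.010 to 0.79). Of other named genes it turned for Ifnb1 (-0.13 to 0.048), Ptpn11 (-0.24 to 0.44), Tagln (-0.22 to 0.072), Cldn5 (-0.22 to 0.095), Vtn (-0.12 to 0.44) and Clec9a (-0.13 to 0.029). Stat2 also turned to 0.0052 with array weights, 0.12 with its probe sets averaged and 0.24 on the dimmer one. Oas1a turned to -0.064 with median centring and -0.20 with quantile normalization. Quantile normalization also turned Adar (-0.11), Ptpn11 (-0.064), Xbp1 (-0.11) and Prmt9 (-0.015), and median centring Xbp1 (-0.023). The cause of these turns was not tested. Probe sets below the lower quartile may carry little signal, and their detection above background was not tested.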
